A study of Mus musculus with 8 samples.

Results

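The 10 genes described here encode the actins and the tropomyosins of mouse. They were taken as the rows of the deposited gene table whose symbol is Acta1, Acta2, Actc1, Actb, Actg1, Actg2, Tpm1, Tpm2, Tpm3 or Tpm4, and make up 6 actins and 4 tropomyosins among 24341 genes. Expression was measured by RNA sequencing of ventricular lysate from 8 samples of male mice, labelled as 4 Cre Negative and 4 Cre Positive. Both groups had the strain label Med13/13L fl/fl, were given Tamoxifen Chow and are labelled with an age of 12 weeks, and the time since tamoxifen was 4 weeks. The series title describes the deletion as specific to cardiomyocytes, and no label gives the name of the Cre line. The Cre-negative group carries both floxed genes and received tamoxifen without Cre, so an effect of Cre itself and of the deletion cannot be told apart. Whether each library came from a separate mouse is not stated, and p-values measure only the spread between these libraries. Libraries are numbered within each group as in their titles.

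Actin polymerises into the thin filament of the sarcomere, along which myosin pulls, and into the finer filaments of the cell cortex and of stress fibres. Tropomyosin is a coiled coil that lies along the actin filament and, with the troponins, sets when myosin can bind. In the heart, Actc1 encodes cardiac alpha-actin and Acta1 skeletal alpha-actin, which is known for its expression in the developing heart and its return in pressure overload. Acta2 encodes smooth muscle alpha-actin and Actg2 smooth muscle gamma-actin, while Actb and Actg1 encode the cytoplasmic actins. Tpm1 encodes the alpha-tropomyosin that is the main form of mouse cardiac muscle, Tpm2 encodes beta-tropomyosin, and Tpm3 and Tpm4 encode forms found in slow muscle and in non-muscle cells. Muscle actin genes are classic targets of serum response factor, which binds the CArG box.

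The DNA before the start of 5 of these genes is printed because they are the 4 that were called different between the groups, with Actc1 beside them as the most abundant actin. Each sequence holds the 250 bases before the annotated start, 5′ to 3′ on the strand of the gene, from the RefSeq table of GRCm38.p6. They lie at chr8:123894776-123895025 for Acta1, chr19:34255374-34255623 for Acta2, chr2:114052876-114053125 for Actc1, chr9:67049214-67049463 for Tpm1 and chr4:43523555-43523804 for Tpm2, all on the minus strand. The RefSeq start of Actc1 lies upstream of the end of its locus in the deposited table. Capitals mark CArG boxes, exact or with 1 base departing from the pattern.
Acta1: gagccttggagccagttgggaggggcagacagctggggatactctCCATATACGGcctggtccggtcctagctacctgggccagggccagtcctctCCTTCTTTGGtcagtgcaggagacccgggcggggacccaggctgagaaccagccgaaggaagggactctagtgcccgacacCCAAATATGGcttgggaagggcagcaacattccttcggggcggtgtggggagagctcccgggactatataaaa
Acta2: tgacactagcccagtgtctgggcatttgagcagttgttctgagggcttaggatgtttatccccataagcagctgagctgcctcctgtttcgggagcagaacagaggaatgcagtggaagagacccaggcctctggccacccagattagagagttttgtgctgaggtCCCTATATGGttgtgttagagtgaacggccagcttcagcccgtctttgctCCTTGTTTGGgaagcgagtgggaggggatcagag
Actc1: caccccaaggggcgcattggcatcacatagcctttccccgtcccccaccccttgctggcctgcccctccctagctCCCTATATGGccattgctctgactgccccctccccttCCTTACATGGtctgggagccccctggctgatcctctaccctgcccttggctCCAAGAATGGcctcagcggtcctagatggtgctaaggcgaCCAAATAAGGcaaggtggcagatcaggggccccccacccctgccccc
Tpm1: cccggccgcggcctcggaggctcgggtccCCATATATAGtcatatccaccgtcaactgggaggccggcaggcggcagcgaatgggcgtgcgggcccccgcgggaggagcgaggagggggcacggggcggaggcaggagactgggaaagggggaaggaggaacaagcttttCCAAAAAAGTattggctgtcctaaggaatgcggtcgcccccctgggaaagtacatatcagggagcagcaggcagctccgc
Tpm2: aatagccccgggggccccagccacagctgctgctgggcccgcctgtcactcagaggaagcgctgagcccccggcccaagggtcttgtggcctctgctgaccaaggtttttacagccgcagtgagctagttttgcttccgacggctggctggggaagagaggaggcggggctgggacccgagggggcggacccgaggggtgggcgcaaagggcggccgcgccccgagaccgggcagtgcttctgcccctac
The CArG box was searched as 2 C, 6 bases of A or T and 2 G, which reads the same on both strands, so both were covered. An exact box stood 73 bases before the start of Acta1, 47 before that of Actc1 and 90 before that of Actg1. Of all 32851 windows of 300 bases in the table, 1.63% hold an exact box and 21.1% hold an exact box or one with 1 departure. Counting both kinds, Actc1 had 4 boxes and Acta1 had 3, against shares of 0.0883% of windows with at least 4 and 0.499% with at least 3. Acta2 and Tpm1 had 2 boxes each with 1 departure, and 3.7% of windows have at least 2. The windows of Tpm2 and Tpm4 held none. The MCAT motif, CATTCC or GGAATG on the other strand, stood 46 bases before the start of Acta1, 146 before that of Acta2 and 56 before that of Tpm1. It was in none of the other members' windows and in 14.7% of all windows. The windows with CArG boxes thus include those of Actc1, Actg1 and Tpm3, which were not called between the groups, and exclude that of Tpm2, which was. That split depends on the scaling. With each library scaled to a fixed FPKM sum, Actc1, Actg1 and Tpm3 were called higher (limma adjusted p of 0.00805, 0.00422 and 0.0118). That scaling called 5461 of all 11685 genes tested higher. The log2 changes of Actc1, Actg1 and Tpm3 were then 0.34, 0.46 and 0.35, against a median of 0.26 for all genes. These matches describe letters and show no binding. The search with 1 departure and the search for MCAT were chosen after the windows had been seen. Windows were present for 8 of the 10 members, without Actb and Actg2.

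Expression is given as FPKM, the fragments per kilobase of transcript and 1000000 mapped fragments, which allows levels to be compared between genes. In units of 1000000 fragments, the estimated depth was 5.46 to 15.1 in the Cre-negative libraries and 4.49 to 23.4 in the Cre-positive libraries. The deleted genes were lower in the Cre-positive libraries, Med13 at 7.394 to 8.734 FPKM against 10.35 to 15.32 and Med13l at 2.352 to 2.588 FPKM against 4.385 to 6.134, with limma adjusted p of 0.00612 and 0.000317. With each library scaled to a fixed FPKM sum, Med13 was not called (log2 change -0.21, adjusted p = 0.185). That sum was taken without genes whose symbols mark small RNAs, ribosomal RNA or ribosomal proteins. The floxed exons are not named in the labels, and the lysate also holds cells other than cardiomyocytes. By the level of Rn45s, the precursor of ribosomal RNA, 5 libraries were above 100 FPKM (Cre-negative 1, 3 and 4, Cre-positive 1 and 2) and 3 below it, with both groups in each set. In the table's column headers, number 2 of each group lacks the word trim that the other 6 columns carry. The library names of Cre-negative 1 and 2 share a stem, and whether they come from 1 mouse is not stated. Leaving out number 2 of both groups, or averaging Cre-negative 1 and 2 as 1 library, changed none of the 9 calls for the members.

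Tested with limma on log2(FPKM + 1), 3 of the 9 members tested rose in the Cre-positive libraries (Acta1, Acta2 and Tpm2), 1 fell (Tpm1) and 5 were not called at an adjusted p under 0.05. Actg2 did not reach the required mean of 1 FPKM. Over all 11685 genes tested, 39.2% were called, 19.7% higher and 19.4% lower, so the 44.4% of members called lies near the background and is no result about the family. The same 4 members had groups that did not overlap in FPKM, which held for 38.0% of all genes (19.3% higher and 18.7% lower). The median log2 change was 0.055 for the members tested and -0.0069 for all genes. The members tested were all well above the 1 FPKM filter in both groups.

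**Figure D1:**
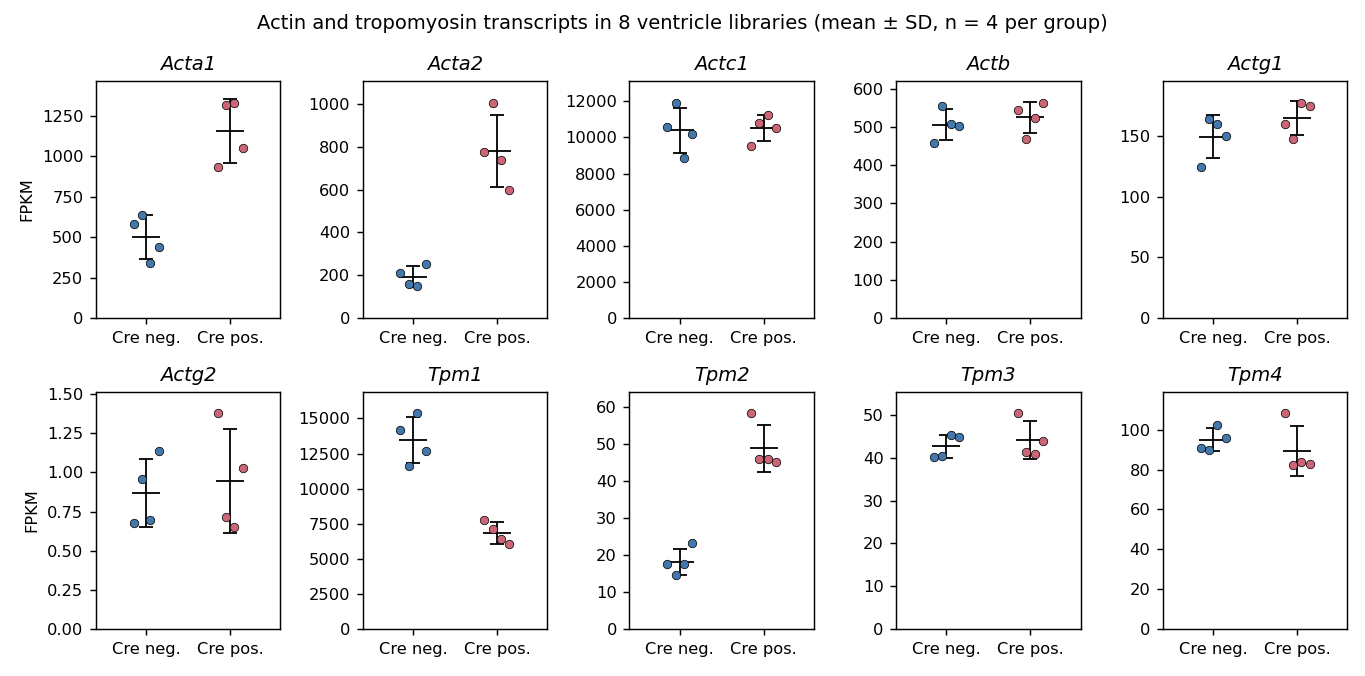
FPKM of the 10 genes, 1 panel per gene with a linear axis of its own that starts at 0; points are the 8 libraries (Cre negative blue, Cre positive red) and bars the mean ± SD of 4 libraries. The Cre-positive points of Acta1, Acta2 and Tpm2 lie above all Cre-negative points and those of Tpm1 below them, while the groups of the other 6 genes overlap.

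Actc1, the cardiac sarcomeric actin (chr2:114047289-114052811, mm10), was the most abundant actin in every library. Its level was 10594.8, 11925.8, 8887.26 and 10203.5 FPKM in Cre-negative libraries 1 to 4, and 9515.92, 10781.9, 11230.5 and 10522.3 FPKM in Cre-positive libraries 1 to 4. The groups overlapped, and the highest and the lowest value were both Cre-negative. The means were 10403 ± 1251 and 10513 ± 726 FPKM (SD, n = 4 each), and the log2 change was 0.020 with an SE of 0.11, a 95% interval of -0.23 to 0.27 and a limma adjusted p of 0.902. The call depended on the scaling: with each library scaled to a fixed FPKM sum the log2 change of Actc1 was 0.34 (adjusted p = 0.00805), against a median of 0.26 for all genes, and with quantile normalization it was 0.69 (adjusted p = 0.000289). Most markers of cardiomyocytes moved differently from Actc1, as 7 of 8 fell, against 19.4% of all genes tested. The remaining marker, Actn2, was like Actc1 not called (log2 change -0.0053, limma adjusted p = 0.972). Under the fixed-sum scaling Actn2 was called higher (0.31, limma adjusted p = 0.0311), as Actc1 was. The summed level of the 8 markers was 55640 to 60760 FPKM in the Cre-negative and 18610 to 20350 FPKM in the Cre-positive libraries. In a lysate of whole tissue, fewer cells of a type and less RNA per cell cannot be told apart.

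Acta1, the skeletal alpha-actin (chr8:123891758-123894775), rose. It was at 584.448, 640.441, 344.084 and 439.806 FPKM in Cre-negative libraries 1 to 4 and at 935.576, 1314.97, 1332.53 and 1048.86 FPKM in Cre-positive libraries 1 to 4. Every Cre-positive library exceeded every Cre-negative one. The mean went from 502.2 ± 135 to 1158 ± 197 FPKM (SD, n = 4 each), a log2 change of 1.23 (SE 0.19, 95% interval 0.80 to 1.66, limma adjusted p = 0.000615). Markers of fast skeletal muscle, which also uses Acta1, were low. The defining markers were at or near the lowest value of the table: Myh4 was listed at 0.01 FPKM in all 8 libraries, and Myh1 and Actn3 stayed at or below 0.054 and 0.077 FPKM. Of that list of 8 genes only Tnnt3, the fast skeletal troponin T, was tested, and its mean rose from 0.142 to 6.95 FPKM. It passed the filter on the mean only through its Cre-positive values of 4.93 to 8.96 FPKM, so that it was tested depended on its rise. In the Cre-negative libraries it was at 0.01 to 0.207 FPKM. Tnni2, the fast skeletal troponin I, had the opposite direction without a test, at 0.614 to 2.19 FPKM in the Cre-negative and 0.01 to 0.453 FPKM in the Cre-positive libraries, and Mylpf was at 0.264 to 1.49 FPKM over the 8 libraries. The summed level of the list was 1.006 to 3.023 FPKM in the Cre-negative and 6.885 to 10.73 FPKM in the Cre-positive libraries. Most of the Cre-positive sum came from Tnnt3.

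Acta2, the smooth muscle alpha-actin (chr19:34240336-34255373), had the largest log2 change of the 9 members tested. Its level was 212.0, 160.8, 149.2 and 252.9 FPKM in Cre-negative libraries 1 to 4. In Cre-positive libraries 1 to 4 it was 775.0, 1005.9, 739.0 and 597.6 FPKM. The lowest Cre-positive value lay well above the highest Cre-negative one, and the mean went from 193.7 ± 48.0 to 779.4 ± 169 FPKM (SD, n = 4 each). The log2 change was 2.01, with an SE of 0.19, a 95% interval of 1.59 to 2.43 and a limma adjusted p of 2.04e-05.

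Acta2 is made by vascular smooth muscle and by activated fibroblasts, and markers of both cell types were examined beside it. Over all genes tested, 19.7% were called higher and 19.4% lower, and lists this short can lie near those shares. Of 8 smooth muscle markers 3 rose (Cnn1, Tagln and Des), 1 fell (Synpo2) and 4 were not called. Their summed level was 619.1 to 673.8 FPKM in the Cre-negative and 1177 to 1553 FPKM in the Cre-positive libraries, most of it from Des, which cardiomyocytes also express. The defining marker Myh11, the smooth muscle myosin heavy chain, had means of 16.4 and 15.3 FPKM (limma adjusted p = 0.586). Of 8 fibroblast markers 5 rose and 3 were not called, and their summed level was 581.0 to 693.3 against 893.4 to 1052 FPKM. Postn, a matrix protein of activated fibroblasts, rose from 33.4 to 168 FPKM, while the defining marker Pdgfra had means of 15.1 and 17.7 FPKM (limma adjusted p = 0.0604). Under the fixed-sum scaling all 8 fibroblast markers were called higher, Pdgfra with a limma adjusted p of 0.000706. That scaling called 5461 of all 11685 genes higher and moved their median log2 change to 0.26. Of 6 pericyte markers 1 rose and 3 fell, with a summed level of 435.0 to 486.5 against 327.9 to 376.5 FPKM, and under the fixed-sum scaling 2 were called higher and 2 lower. The defining marker Pdgfrb had means of 26.8 and 29.0 FPKM (limma adjusted p = 0.276, called higher under the fixed-sum scaling at 0.00112). Of 6 endothelial markers 2 fell and of 6 macrophage markers 3 fell, and the other markers of both lists were not called, but under the fixed-sum scaling 1 of each fell and 1 endothelial marker rose. Cnn1, Tagln and Des among the smooth muscle markers and 5 of 8 fibroblast markers thus rose in the libraries in which Acta2 was high. Of the other smooth muscle markers, Synpo2 fell and Myh11, Smtn, Lmod1 and Mylk were not called. The fibroblast markers Pdgfra, Dcn and Ddr2 were not called either. The part of these cell types, and that of cardiomyocytes, in the rise of Acta2 was not tested.

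Actg2, the other smooth muscle actin (chr6:83512909-83536251), was the rarest member. It was at 0.680, 0.958, 0.698 and 1.14 FPKM in Cre-negative libraries 1 to 4 and at 1.38, 0.716, 0.653 and 1.03 FPKM in Cre-positive libraries 1 to 4. The groups overlapped (means 0.868 ± 0.219 and 0.943 ± 0.333 FPKM, SD, n = 4 each; exact two-sided permutation p = 0.771). These values rest on an estimated 5.11 to 30.8 fragments per library, and a count of 0 would allow up to 0.096 to 0.501 FPKM, so every library was above that limit. Fitted by limma with no filter on low values, the log2 change of Actg2 was 0.049 with an SE of 0.14.

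The cytoplasmic actins were not called. Actb, beta-actin (chr5:142903118-142906754), was at 456.9, 555.2, 506.5 and 503.5 FPKM in the Cre-negative and 543.2, 468.8, 524.6 and 563.6 FPKM in the Cre-positive libraries. Its groups overlapped, with a log2 change of 0.055 (95% interval -0.14 to 0.25, limma adjusted p = 0.661), although under the fixed-sum scaling it was 0.37 (adjusted p = 0.00489) and under quantile normalization 0.35 (adjusted p = 0.0136). Actg1, gamma-actin (chr11:120345690-120348484, a span that also holds Mir6935), ranged from 124.4 to 164.0 FPKM in the Cre-negative and from 147.7 to 177.6 FPKM in the Cre-positive libraries. Its log2 change was 0.15 (95% interval -0.08 to 0.37, limma adjusted p = 0.294), and it was called under the fixed-sum scaling (0.46, adjusted p = 0.00422) and with sample quality weights (0.29, adjusted p = 0.0292). The level of Actg1 is uncertain, because 56.7% of its stretches of 50 bases also occur in transcripts of other genes, mostly pseudogenes. For Actb that share was 14.2%, for Acta1 2.22%, for Acta2 0.352%, and for Actc1 and Actg2 no stretch was shared.

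Tpm1, the main tropomyosin of the heart (chr9:67022593-67049213), fell. Its level was 14156.8, 11648.8, 15370.6 and 12698.3 FPKM in Cre-negative libraries 1 to 4 and 7743.78, 7125.93, 6437.14 and 6029.3 FPKM in Cre-positive libraries 1 to 4. The groups lay far apart, with means of 13469 ± 1633 and 6834 ± 757 FPKM (SD, n = 4 each). The log2 change was -0.98 (SE 0.12, 95% interval -1.24 to -0.71, limma adjusted p = 0.000118). The call was lost with quantile normalization (-0.32, adjusted p = 0.124) and with no filter on low values (-0.98 with an SE of 0.74, adjusted p = 0.566), and under the fixed-sum scaling the change was -0.66. Tpm1 and 7 of the 8 cardiomyocyte markers fell in the same libraries. Among them Tnnt2, the cardiac troponin T that binds tropomyosin, went from 6393 to 2344 FPKM. The part of the cardiomyocytes in the fall of Tpm1 was not tested.

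Tpm2, beta-tropomyosin (chr4:43513726-43523554), rose from a low level. It was at 17.5, 14.7, 17.5 and 23.1 FPKM in Cre-negative libraries 1 to 4, and at 58.2, 45.7, 46.0 and 44.9 FPKM in Cre-positive libraries 1 to 4. Every Cre-positive library was higher, and the first stood above the other 3. The mean went from 18.2 ± 3.53 to 48.7 ± 6.35 FPKM (SD, n = 4 each), a log2 change of 1.38 (SE 0.13, 95% interval 1.09 to 1.68, limma adjusted p = 2.4e-05). Even so, Tpm1 remained 133.0 to 155.8 times as abundant as Tpm2 in the Cre-positive libraries, against 550.3 to 878.5 times in the Cre-negative ones.

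The remaining tropomyosins were not called. Tpm3 (chr3:90072651-90100902) ranged from 40.2 to 45.3 FPKM in the Cre-negative and from 40.8 to 50.4 FPKM in the Cre-positive libraries, a log2 change of 0.042 (95% interval -0.15 to 0.24, limma adjusted p = 0.735) that was 0.35 (adjusted p = 0.0118) under the fixed-sum scaling. Its level is uncertain, because 62.4% of its stretches of 50 bases recur in other genes, among them Tpm3-rs7. Tpm4 (chr8:72135292-72153129) ranged from 89.9 to 102.6 FPKM and from 82.4 to 108.2 FPKM. Its log2 change was -0.094 (95% interval -0.32 to 0.13, limma adjusted p = 0.491) and turned to 0.22 (adjusted p = 0.111) under the fixed-sum scaling. Tpm4 shares 12.1% of its stretches with another gene, Gm7809, while Tpm1 and Tpm2 share none.

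**Figure D2:**
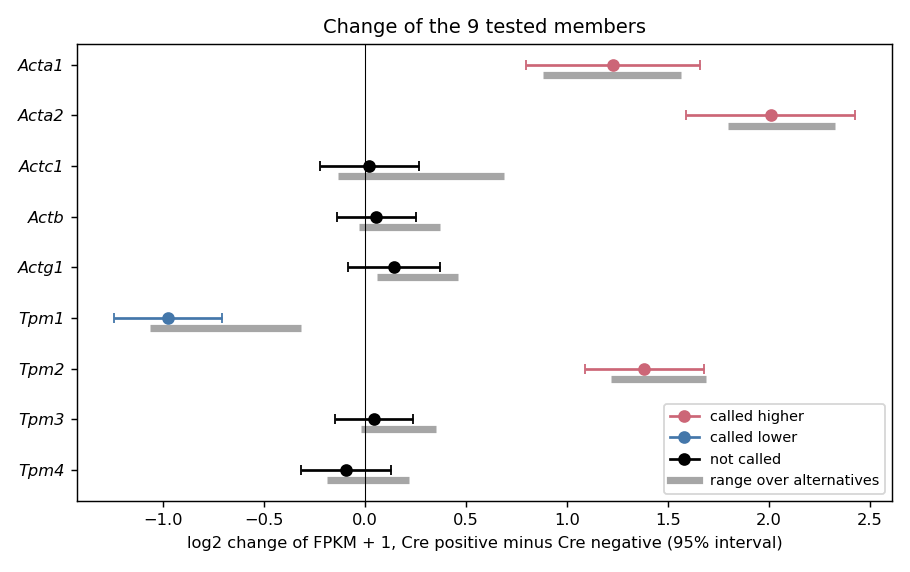
Log2 change of FPKM + 1 (Cre positive minus Cre negative) of the 9 members tested, with points for the estimate and lines for the 95% interval, and grey bars for the range over 22 alternative settings; red marks genes called higher, blue lower and black not called. The intervals of Acta1, Acta2 and Tpm2 lie above 0 and that of Tpm1 below it, and the grey bars of these 4 genes do not cross 0.

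The 4 called members had groups that did not overlap in FPKM, so their direction within the Rn45s sets was fixed in advance. The values below describe the size of the change, and their p-values reuse libraries by which these members were called. Among the 5 libraries above 100 FPKM of Rn45s the log2 change was 1.31 for Acta1, 2.14 for Acta2, 1.38 for Tpm2 and -0.92 for Tpm1, each called by limma (adjusted p of 0.00881, 0.00119, 0.00156 and 0.00688). In the other 3 libraries, 1 Cre-negative against 2 Cre-positive, the values were 0.88, 2.04, 1.57 and -0.90, given with no test.

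The shares within a family, computed on the deposited FPKM, do not change when all values of a library are multiplied by 1 factor, as in the fixed-sum scaling. Quantile normalization is not of that kind and moved the members unequally. Shares add up to 100% in each library and are not independent of each other. The exact two-sided permutation tests of shares, ratios and sums number 28 and were not adjusted, and 0.0286 is the smallest p that 70 assignments allow.

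Among the actins, Actc1 gave 88.5% ± 0.146 of the family's FPKM in the Cre-negative libraries and 80.0% ± 1.21 in the Cre-positive ones (SD, n = 4 each; exact permutation p = 0.0286). Its Cre-negative values lay between 88.3% and 88.7%, and its Cre-positive values between 78.6% and 81.5%. Acta1 went from 4.22% ± 0.715 to 8.77% ± 0.912 and Acta2 from 1.66% ± 0.424 to 5.93% ± 1.21, both without overlap between the groups (exact permutation p = 0.0286 each). The share of Actc1 was thus lower in every Cre-positive library, although its FPKM overlapped between the groups. The share of Actb was 4.34% and 4.02% (exact permutation p = 0.486) and that of Actg1 1.29% and 1.26% (exact permutation p = 0.914). Actg2 stayed below 0.012% in every library.

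Among the tropomyosins, Tpm1 gave 98.8% ± 0.117 of the family's FPKM in the Cre-negative and 97.4% ± 0.201 in the Cre-positive libraries. The shares of the other 3 all rose: Tpm2 from 0.135% ± 0.0303 to 0.695% ± 0.0477, Tpm3 from 0.316% ± 0.0345 to 0.631% ± 0.0588 and Tpm4 from 0.701% ± 0.0627 to 1.27% ± 0.103 (SD, n = 4 each; exact permutation p = 0.0286 for each of the 4 shares). Of these 3, only Tpm2 was called in FPKM. Taken without Tpm1, the share of Tpm2 among the rest went from 11.6% to 26.8%, while Tpm3 went from 27.4% to 24.3% and Tpm4 from 60.9% to 49.0%, so that their direction turned. Without Actc1, the share of Acta2 among the other actins went from 14.4% to 29.5% and that of Actb from 37.7% to 20.2%, while the groups overlapped for Acta1 (36.7% and 43.9%, exact permutation p = 0.143).

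**Figure D3:**
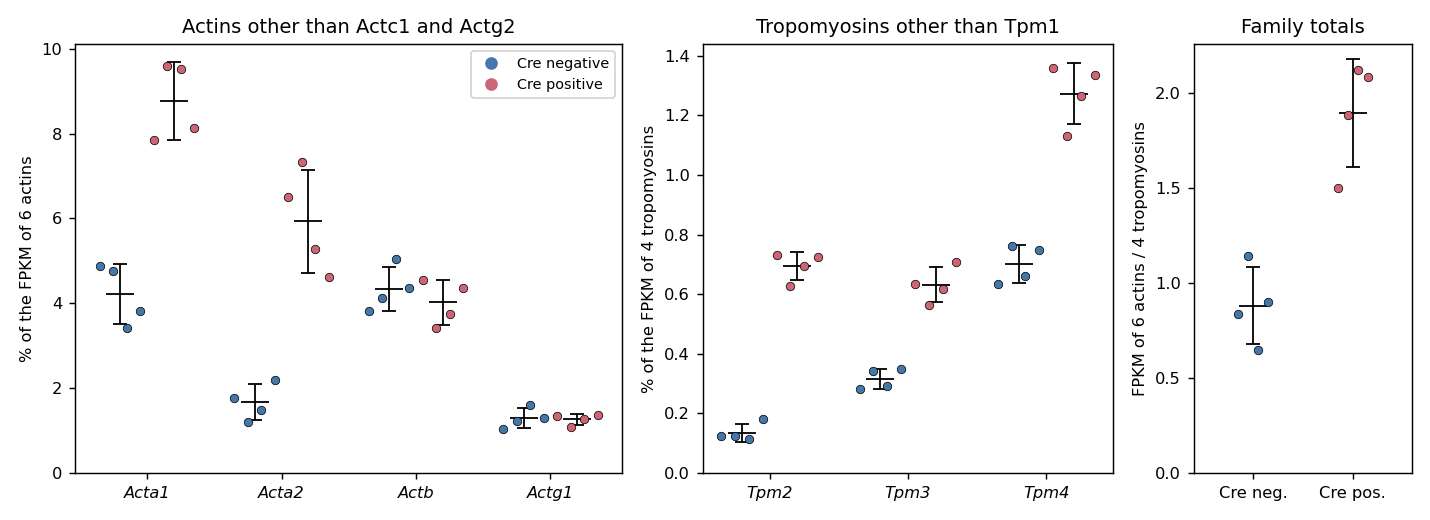
Left and middle, percent of the summed FPKM of the 6 actins or the 4 tropomyosins for the genes other than Actc1, Actg2 and Tpm1; right, summed FPKM of the actins over that of the tropomyosins; points are libraries (Cre negative blue, Cre positive red) and bars the mean ± SD of 4 libraries. The groups are apart for Acta1, Acta2, Tpm2, Tpm3, Tpm4 and the ratio of the families, and they overlap for Actb and Actg1.

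Ratios between genes were compared next. Actc1 was 18.1 to 25.8 times as abundant as Acta1 in the Cre-negative libraries and 8.20 to 10.2 times in the Cre-positive ones, a difference of 1.21 in log2(Acta1/Actc1) (exact permutation p = 0.0286). Actc1 was 40.3 to 74.2 times as abundant as Acta2 in the Cre-negative libraries and 10.7 to 17.6 times in the Cre-positive ones, a difference of 2.00 in log2(Acta2/Actc1) (exact permutation p = 0.0286). The ratio of Acta1 to Acta2 was 1.74 to 3.98 and 1.21 to 1.80, with overlap (exact permutation p = 0.0857). The ratio of Actb to Actg1 (exact permutation p = 0.286) and that of Tpm4 to Tpm3 (exact permutation p = 0.0571) overlapped as well.

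The balance between the families differed. The summed FPKM of the 6 actins was 0.837, 1.14, 0.647 and 0.898 times that of the 4 tropomyosins in Cre-negative libraries 1 to 4, and 1.499, 1.88, 2.12 and 2.08 times in Cre-positive libraries 1 to 4. No Cre-positive library reached down to the Cre-negative values, and the difference was 1.12 on the log2 scale (exact permutation p = 0.0286). The tropomyosin sum went from 13624 ± 1638 to 7016 ± 775 FPKM (SD, n = 4 each; exact permutation p = 0.0286). The actin sum, at 11755 ± 1398 and 13141 ± 931 FPKM (SD, n = 4 each), overlapped between the groups (exact permutation p = 0.171). The sum over the whole table also differed, 578500 ± 27822 against 471210 ± 7723 FPKM (SD, n = 4 each; exact permutation p = 0.0286). It holds all genes and is not the sum used for the fixed-sum scaling.

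The other genes of the actin filament were read from 6 lists with 73 genes, of which 69 were tested. Of these 20 rose, 10 fell and 39 were not called. The 43.5% called lies near the 39.2% of all genes and is no result about the lists. Over all genes 19.7% were called higher and 19.4% lower, and the counts per list below stand beside those shares. The median log2 change of the listed genes was 0.13 against -0.0069 for all genes. Under the fixed-sum scaling, which moved the median of all genes to 0.26, the same lists had 50 genes higher and 6 lower, so their split between directions depends on the scaling. The genes named below as risen or fallen kept their direction and their call under that scaling and under quantile normalization.

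Genes for the ends and the length of the thin filament had 1 of 12 higher and 3 lower. The 3 were Tmod4, a tropomodulin that caps the pointed end (20.3 ± 3.28 to 4.94 ± 0.636 FPKM, log2 change -1.84), and the leiomodins Lmod3 (-0.93) and Lmod2 (-0.67), which promote filament assembly and elongation. Capzb, a subunit of the protein that caps the barbed end, rose by 0.36. Tmod1, the tropomodulin of the heart, was at 81.2 ± 4.09 and 82.3 ± 7.003 FPKM and was not called, but was called higher under the fixed-sum scaling (0.33, adjusted p = 0.00404).

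Among 20 genes of actin monomer binding and turnover, 7 rose and 2 fell. Dstn, which severs and depolymerises filaments, went from 144.2 ± 15.1 to 345.7 ± 54.6 FPKM (log2 change 1.25). Its relative Cfl1, cofilin, went from 108.3 ± 10.3 to 228.1 ± 18.5 FPKM (1.07). Wdr1, a cofactor of cofilin, rose by 0.79, and the coronin Coro6 fell by 0.72 on the log2 scale. Among 17 tested genes of nucleation 3 rose: Arpc2 (0.72), Arpc4 (0.67) and Arpc3 (0.49), subunits of the Arp2/3 complex that starts branched filaments. The other 6 of the 9 subunits tested were not called, nor were they under quantile normalization, but all 6 were called higher under the fixed-sum scaling. Of the 2 that fell, Fhod3, a formin of the cardiac sarcomere, went from 93.2 ± 9.80 to 32.7 ± 1.63 FPKM (log2 change -1.48).

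Crosslinkers and side binders had 8 of 15 higher and 2 lower. The calponin Cnn1, a smooth muscle protein that binds actin, went from 2.41 ± 1.56 to 55.2 ± 13.0 FPKM (log2 change 4.11). The non-muscle alpha-actinin Actn1 went from 8.31 ± 0.656 to 28.2 ± 2.46 FPKM (1.65), while the sarcomeric alpha-actinin Actn2 was at 722.4 ± 94.0 and 715.6 ± 22.6 FPKM and was not called (under the fixed-sum scaling 0.31, adjusted p = 0.0311). Cnn2 rose by 1.38 and the filamin Flnc by 1.35. Of serum response factor and its coactivators, Myocd, myocardin, fell from 20.1 ± 3.92 to 9.98 ± 0.895 FPKM (log2 change -0.93) and Mrtfb, listed under its older symbol Mkl2, rose by 0.33. Srf itself was at 27.1 ± 3.10 and 29.6 ± 0.849 FPKM (limma adjusted p = 0.278, and 0.000729 under the fixed-sum scaling), and Mrtfa was not called (limma adjusted p = 0.219) except under the fixed-sum scaling (0.42, adjusted p = 0.017). In the list of actin modification 1 of 3 genes was tested, Setd3, which was not called, though it was called higher under both other scalings.

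**Figure D4:**
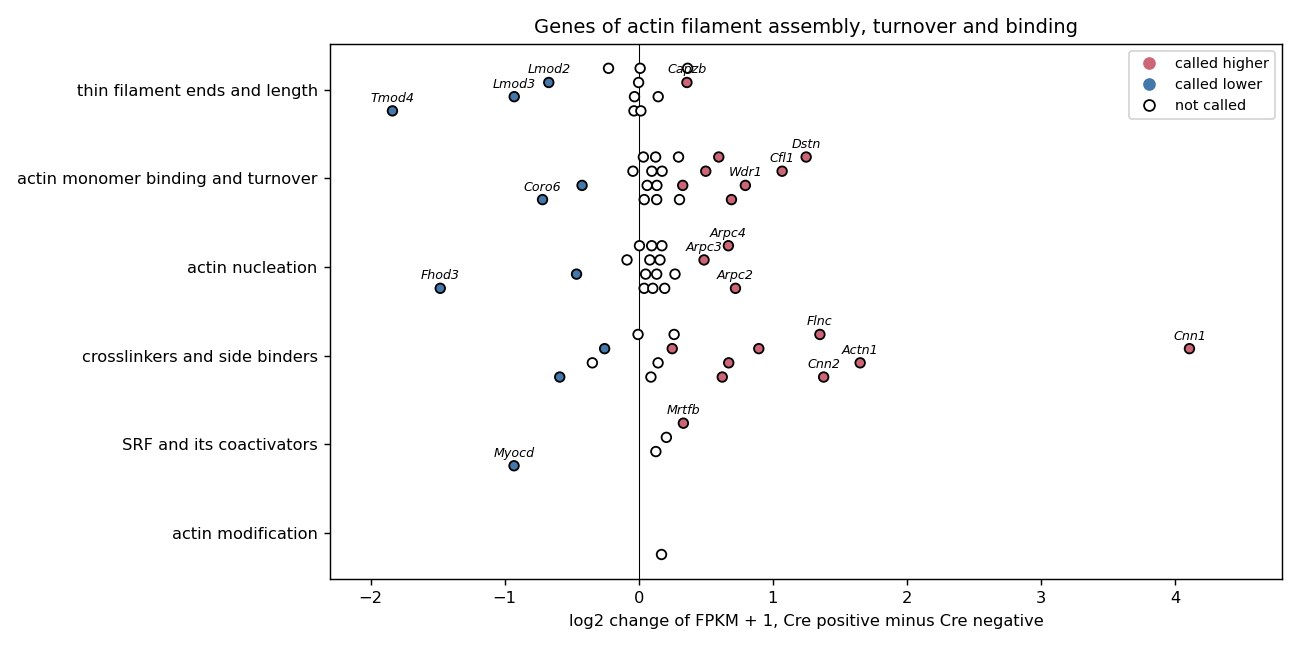
Log2 change of FPKM + 1 (Cre positive minus Cre negative) of each of the 69 genes tested in 6 lists, 1 point per gene, filled red where called higher, blue where called lower and open where not called, spread in height only to part the points, with names for up to 4 called genes per list. Cnn1 stands far to the right at 4.11 and Tmod4 farthest to the left at -1.84, and most other points lie near 0.

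The genes whose pattern over the 8 libraries was most like that of a called member were named by Pearson's r of log2(FPKM + 1) among the 5561 genes whose mean reached 10 FPKM. They were Wwp2 (0.997), Atp6v1e1 (0.994) and Klc4 (0.993) for Acta1, and Ifi27l2b (0.993), Ppp2r5c (0.990) and Cast (0.990) for Acta2. For Tpm1 they were Itgb1bp2 (0.996), Txlnb (0.993) and Ndufb3 (0.992), and for Tpm2 Azin1 (0.993), Zyx (0.993) and Ankrd1 (0.992). The 8 libraries fall into 2 groups that differ in each of these members, so the values mostly describe that difference.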

How the data were processed

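RNA was extracted from ventricular lysate and made into stranded total RNA libraries after removal of ribosomal RNA, per the labels' protocols. The deposited values are FPKM for each gene in each library, which the authors computed with Cufflinks; Bowtie2 2.2.6 and the build mm10 are listed with it, per the submitters' processing notes. For aligner settings, annotation, strand use and filters, the sources used here give nothing. The lowest deposited FPKM, 0.01, stands in 32.6% to 39.0% of the genes of a library, and 3 genes with a word in place of a value were left out. Starts were moved by 1 to count from 1, after which 11863 equalled RefSeq starts, against 680 as written.

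Depth was estimated from the step that 1 fragment makes in FPKM times length over 5410 genes with 1 transcript of 500 to 4000 bases. Limits from a count of 0 use 3 fragments and cover counting error only. Groups were compared with limma 3.58.1 in R 4.3.3 on log2(FPKM + 1), with a variance trend, over the 11685 genes whose mean reached 1 FPKM, with Benjamini-Hochberg adjustment across them. This scale understates the change of low genes. The limma step was tested on simulated data. Shares and ratios were compared by exact permutation with SciPy 1.17.1. Shared stretches were counted in GENCODE transcripts.

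The members, gene lists and tests were chosen with earlier results of these data known. Named were the 10 members, Med13 and Med13l, up to 4 called genes per filament list with the largest change, the 3 genes most like each called member, and the defining markers. Tmod1, Actn2, Srf, Mrtfa, Setd3, Tnnt3, Tnni2, Mylpf, Dcn, Ddr2, Postn and the smooth muscle markers given by name were chosen after their values were seen. Alternatives varied scaling, pseudocount, filter, test, Rn45s set, replicate block and libraries.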

Additional observations from a re-analysis of the deposited data

Results flagged for a closer look

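In 2 of the 54 groups of 4 values checked, 1 library stood apart from the other 3 by Dixon's criterion for 4 values, where chance gives about 1 in 20. Tpm2 was at 58.2 FPKM in Cre-positive library 1, with a gap of 0.921 of the range, and the other 3 Cre-positive libraries lay between 44.9 and 46.0 FPKM. Tpm4 was at 108 FPKM in the same library, with a gap of 0.956 of the range, and the others lay between 82.4 and 83.6 FPKM. This library had the lowest estimated depth, 4.49 in units of 1000000 fragments, and the highest Rn45s level, 1053 FPKM. Without it, the log2 change was 1.30 for Tpm2 and -0.19 for Tpm4.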

How the results depend on the processing

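Over 22 alternatives, 21 of them with a p, Acta1, Acta2 and Tpm2 were called higher in all 21 and Tpm1 lower in 19, at log2 changes of 0.88 to 1.56, 1.80 to 2.33, 1.22 to 1.69 and -1.07 to -0.32. Scaling to a fixed FPKM sum gave 7 members higher, 50 filament genes higher and 6 lower, and 5461 of all genes higher and 1011 lower, against 3, 20, 10, 2307 and 2268. Quantile normalization gave 5 members higher and 0 lower, and no filter on low values also left 0 lower; the cause was not tested. Uncalled changes turned sign: Actc1 to -0.023 with Rn45s set as a term, -0.053 without Cre-negative 3 and -0.012 without Cre-positive 3 (-0.053 to 0.089 over each library left out), Tpm3 to -0.022 without Cre-positive 1 (-0.022 to 0.077 likewise) and Tpm4 to 0.22 with the fixed sum. In the 3 libraries low in Rn45s, with no test, Actc1 was at -0.13 and Actb at -0.03. The share of Tpm3 differed by -3.15 and that of Tpm4 by -12.0 percentage points without Tpm1 in the sum, since each is then a share of the rest alone. Among the 3 libraries low in Rn45s all 7 ratios were apart, against 4, with only 1 against 2 libraries. Leaving out 1 library at a time gave 3 members higher and 1 lower each time, and 1862 to 2335 genes higher and 1862 to 2317 lower.

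Titles give both groups the numbers 1 to 4, but same-numbered libraries did not deviate together (correlations of -0.16 to -0.08), so the numbers were not taken as pairs. With a replicate block 1964 genes were higher and 1900 lower, and the members' counts stayed at 3 and 1. The 2 alternatives below were chosen after seeing the data: averaging Cre-negative 1 and 2 (2176 higher, 2136 lower) and using only the 6 columns named trim (1984 and 1933), with 3 members higher and 1 lower in both. Depth limits Actg2, which rests on 5.11 to 30.8 estimated fragments.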
